A study of Rattus norvegicus with 48 samples.

Results

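The 10 genes described here, Bdnf, Nptx2, Homer1, Inhba, Vgf, Scg2, Pcsk1, Nrn1, Rgs4 and Dusp4, are induced late in the response of a neuron to electrical activity. They were taken by symbol from a table of 30211 genes, and all 10 passed the filter on low values that left 15890 genes for testing. RNA-seq was performed on primary cortical cultures made from Sprague-Dawley rat fetuses of gestational day 18 and grown for 21 days in vitro (DIV 21), with 48 libraries in 16 groups of 3. No allele or transgene is given for the rats, and all groups share the culture and its age. Untreated cultures formed the Control group. Cocaine cultures were given 25 µM cocaine for 24 h, and Tat cultures were given 6 ng/mL of Tat, the transactivator protein of HIV, for 48 h. Tat-Cocaine cultures were given Tat for 48 h and cocaine for 24 h, and the paper's figure legends place the cocaine after the 48 h of Tat. Cultures given Tat and cocaine may thus have been collected later than those given Tat alone. Cocaine and time since Tat cannot be told apart in comparisons between them. The other 12 groups were given 4-octyl itaconate (4OI, a cell-permeable derivative of itaconate) at 250 µM, amlexanox (an inhibitor of the kinases Tbk1 and Ikbke) at 25 µM, tazemetostat (an inhibitor of the histone methyltransferase Ezh2) at 3 µM or senicapoc (a blocker of the potassium channel Kcnn4) at 1 µM, each alone, with Tat, or with Tat and cocaine. The labels do not say whether the 3 libraries of a group came from separate animals, so a p-value measures only the spread between these samples.

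When a neuron fires, calcium enters through NMDA receptors and voltage-gated channels, and kinases activate transcription factors such as CREB that were present before the stimulus. Immediate-early genes such as Fos, Npas4 and Arc are transcribed within minutes, and many of them encode transcription factors. Late genes follow over hours, in part under those factors, and many encode proteins that leave the cell or sit at the synapse. Among them, Bdnf encodes brain-derived neurotrophic factor, the ligand of the receptor Ntrk2, and Inhba encodes the subunit of activin A. Nptx2, a pentraxin, gathers AMPA receptors at excitatory synapses onto interneurons. Homer1 encodes a postsynaptic scaffold that joins metabotropic glutamate receptors to their partners, and its short activity-induced isoform was not separated from the long forms in counts per gene. Nrn1, or neuritin, is a membrane-anchored protein that promotes neurite growth. Vgf and Scg2 are granin-family proteins of dense-core vesicles, and Pcsk1 is the convertase that cuts prohormones there. Rgs4 shortens G protein signalling, and Dusp4 is a nuclear phosphatase that inactivates MAP kinases.

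The promoters of 7 of the 10 genes were found in the RefSeq promoter table (build GRCr8), with 12 windows in all, 6 of them of Bdnf, whose alternative first exons have promoters of their own. Windows 5 and 6 of Bdnf overlap. Those of Pcsk1, Nrn1 and Dusp4 are named only. Each window held the 250 bases before a transcript start and the 50 after it, and 3 motifs were sought on both strands. The cAMP response element TGACGTCA, which CREB binds, was in 2 of the 12 windows and in 1.83% of all 33469 promoter windows. The shorter TGACG, which lies inside that element, was in 5 of the 12 and in 21.2% of all. The pattern TGANTCA, with any base at N, was in 1 of the 12 (window 3 of Bdnf, 152 bases before the start) and in 7.33% of all. It is looser than the AP-1 site of Fos and Jun proteins, which has C or G at N. The match in Bdnf reads TGAATCA and is not that site. The windows that hold the element or its core are shown, except that of Rgs4. The 250 bases before the start are given in the direction of transcription. Capitals mark TGACGTCA in Vgf and Scg2, and TGACG in Nptx2 and, on the other strand (CGTCA), in window 4 of Bdnf. The positions are chr12:25277021-25277270 on the minus strand for Vgf, chr9:88256867-88257116 on the minus strand for Scg2, chr12:15162046-15162295 on the minus strand for Nptx2 and chr3:116637608-116637857 on the plus strand for Bdnf.
Vgf: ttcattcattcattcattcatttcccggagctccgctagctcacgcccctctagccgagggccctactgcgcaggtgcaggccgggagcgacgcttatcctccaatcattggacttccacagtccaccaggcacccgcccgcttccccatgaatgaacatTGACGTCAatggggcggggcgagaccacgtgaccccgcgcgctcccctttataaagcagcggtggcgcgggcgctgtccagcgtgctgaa
Scg2: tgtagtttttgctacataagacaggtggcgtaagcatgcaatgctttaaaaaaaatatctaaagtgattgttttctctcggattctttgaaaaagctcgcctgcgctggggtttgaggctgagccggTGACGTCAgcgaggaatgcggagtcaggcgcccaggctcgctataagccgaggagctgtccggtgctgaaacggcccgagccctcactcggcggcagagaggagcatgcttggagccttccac
Nptx2: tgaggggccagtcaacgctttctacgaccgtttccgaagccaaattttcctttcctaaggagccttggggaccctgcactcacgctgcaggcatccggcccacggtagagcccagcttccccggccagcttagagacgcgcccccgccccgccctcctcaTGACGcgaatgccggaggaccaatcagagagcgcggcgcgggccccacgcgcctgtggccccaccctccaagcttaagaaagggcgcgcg
Bdnf: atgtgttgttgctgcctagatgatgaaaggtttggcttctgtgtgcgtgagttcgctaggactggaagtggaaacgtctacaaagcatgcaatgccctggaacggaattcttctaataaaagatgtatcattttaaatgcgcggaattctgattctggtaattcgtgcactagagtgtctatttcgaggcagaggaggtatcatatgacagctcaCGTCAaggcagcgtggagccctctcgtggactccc
The element begins 90 bases before the start in Vgf and 123 in Scg2, and the shorter TGACG begins 90 bases before the start in Nptx2, 153 in Rgs4 and 35 in this window of Bdnf. A match describes these letters and is no evidence of binding, and no assay here measured these sites.

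Each library held 17.5 to 29.1 M reads (median 22.4 M), estimated by taking the most frequent of its small values as a single read. On that estimate, a level of 0.5 CPM (read counts scaled to the size of the library) stands for 8.58 to 15 reads. The labels call the cells neurons, and neuron markers such as Map2 (215 to 795 CPM) were present in all 48 libraries, although Eno2 was near 0 (0.0483 to 0.737 CPM). Markers of astrocytes (Gfap, 2231 to 7582 CPM), microglia (Csf1r, 65.2 to 881 CPM) and oligodendrocytes (Mbp, 8.92 to 9293 CPM) were present too, whereas the vessel marker Cldn5 was at 0 in 25 libraries. In such mixed cultures, fewer neurons and less RNA per neuron cannot be told apart. The mean level of 16 neuron markers is therefore given beside the results, and the tests were also repeated after each library was centred on it. Of the 3 Cocaine libraries, replicates 2 and 3 stood apart from replicate 1 in neuron markers, with a mean log2 CPM of 5.91 and 5.83 against 7.21.

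The 10 genes differed widely in how much they varied across the 48 libraries. Bdnf ranged from 2.22 to 129 CPM (median 34.2), a 58.3-fold range, whereas Homer1 ranged from 15.1 to 41.7 CPM (median 26.4), a 2.77-fold range. Inhba was the gene nearest the detection limit, at 1.17 to 19.4 CPM (median 2.69). Vgf lay between 36 and 579 CPM (median 289), Scg2 between 88.3 and 664 CPM (median 295) and Pcsk1 between 5.25 and 73.7 CPM (median 28). Nptx2 covered 8.10 to 191 CPM (median 49.6), Nrn1 2.40 to 32.8 CPM (median 15), Rgs4 38.8 to 421 CPM (median 172) and Dusp4 6.27 to 96.0 CPM (median 38.9).

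Ordered by group mean, 9 of the 10 genes were lowest in Tat-Cocaine-Tazemetostat cultures, and Vgf was lowest in Cocaine cultures. The highest group was Tat-Senicapoc for Nptx2, Inhba, Vgf, Pcsk1 and Rgs4, Amlexanox for Bdnf, Scg2 and Dusp4, and Senicapoc for Homer1 and Nrn1. Mean Bdnf levels ran from 7.43 ± 3.64 CPM (SD, n = 3) in Tat-Cocaine-Tazemetostat to 107 ± 36.1 CPM (SD, n = 3) in Amlexanox, with Control at 59.9 ± 44.7 CPM (SD, n = 3). Mean Inhba levels ran from 1.61 ± 0.607 CPM (SD, n = 3) in Tat-Cocaine-Tazemetostat to 11.8 ± 6.86 CPM (SD, n = 3) in Tat-Senicapoc, with Control at 3.31 ± 1.42 CPM (SD, n = 3). Neighbours in these orders mostly overlapped: of the 15 neighbouring pairs of groups, 1 had non-overlapping libraries for Nrn1 and for Rgs4, and 0 for each of the other 8 genes. The library numbered 2 of a group lay above its own group's mean over the 10 genes in only 2 of 16 groups, against 11 for replicate 1 and 10 for replicate 3.

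**Figure D1:**
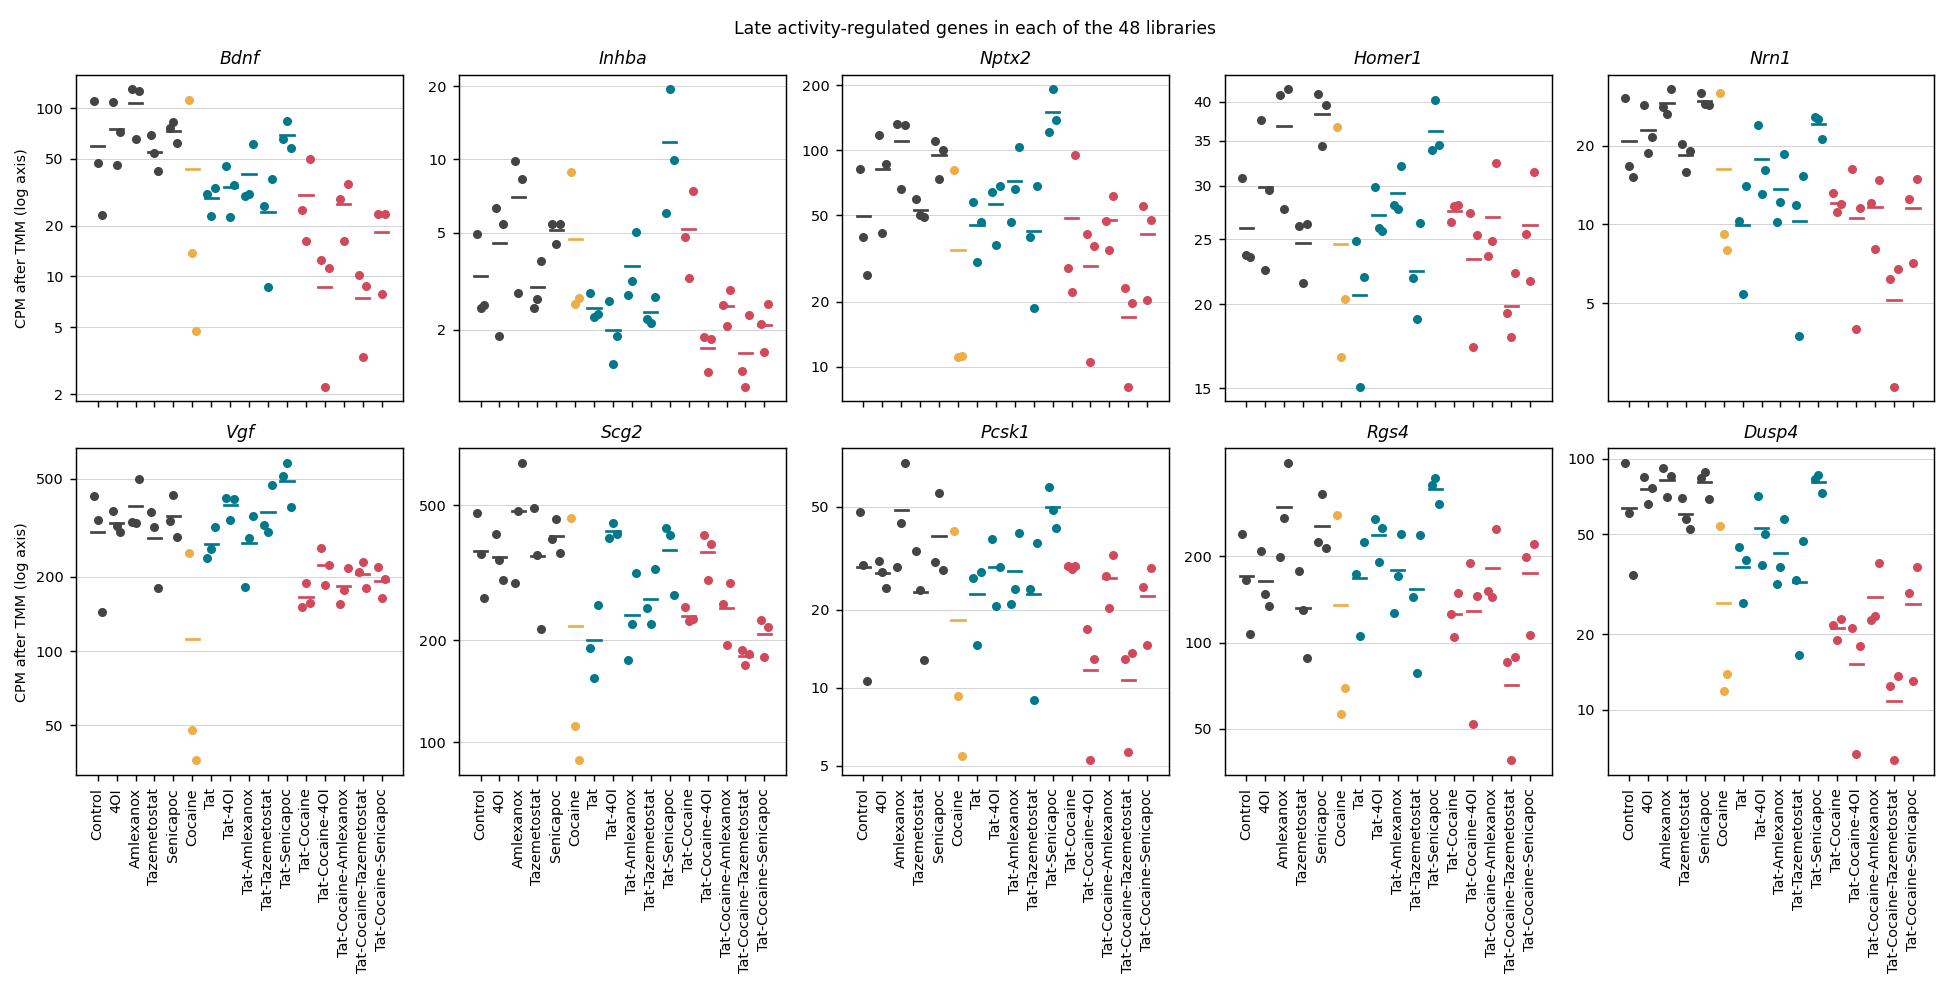
Level of each of the 10 genes in CPM (log axis) in the 16 groups. Each point is 1 library and each bar the mean of 3; grey marks Control and the compounds alone, yellow Cocaine, teal the groups with Tat and red those with Tat and cocaine. Bdnf spans 2.22 to 129 CPM and Homer1 15.1 to 41.7 CPM.

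Over the 16 group means of log2 CPM, the genes followed each other to different degrees. Bdnf and Dusp4 had a Pearson's r of 0.96, and their r within groups (each library less its group mean, 48 libraries) was 0.91. Bdnf and Nptx2 gave 0.89 over groups and 0.93 within them. Pcsk1 and Rgs4 gave 0.90 and 0.94, and the granule proteins Vgf and Scg2 gave 0.73 and 0.90. Inhba was the least like the granule proteins, with 0.27 and 0.45 against Vgf and 0.35 and 0.37 against Scg2. These values describe libraries that share depth, scaling and cell mixture, and no test was made of them.

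The level of the 10 genes also followed that of the neuron markers. Their mean log2 level correlated with the mean of the neuron markers at r = 0.92 over group means and 0.89 within groups. Nrn1 followed the neuron markers most closely (0.93 over group means and 0.91 within groups), Inhba least (0.63 and 0.46), and Vgf gave 0.65 and 0.73.

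**Figure D2:**
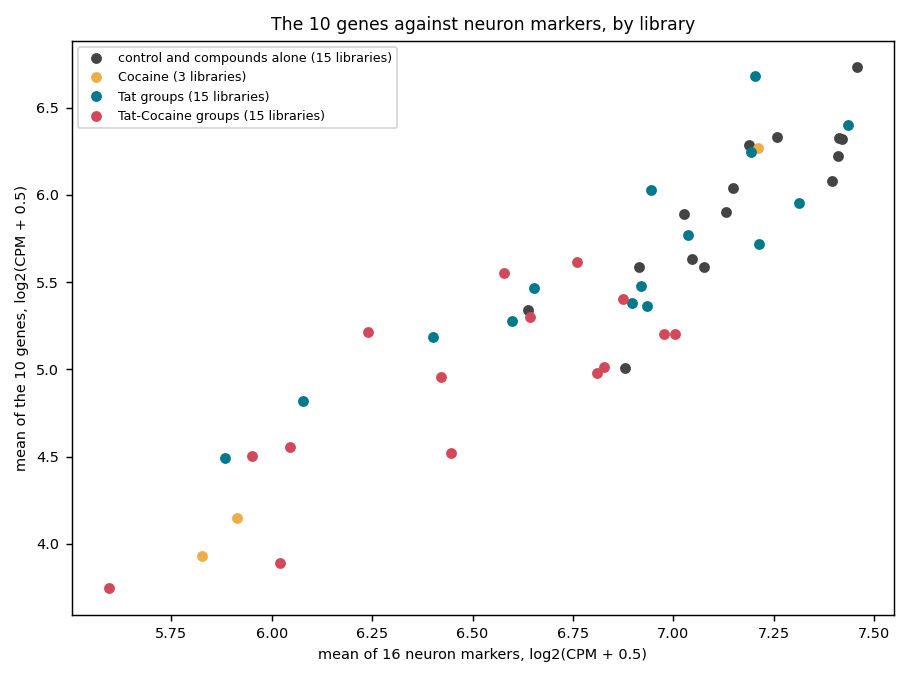
Mean log2(CPM + 0.5) of the 10 late genes (vertical axis) against that of the 16 neuron markers (horizontal axis), 1 point per library, coloured by treatment. The points rise together across the 48 libraries, with r = 0.92 over the 16 group means.

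To find the genes whose levels were most like each of the 10, Pearson's r over the 16 group means was taken for 12047 genes outside the 10 with a mean of at least 5 CPM, and the 3 highest were kept. Bdnf was most like AABR07052897.3 (0.97), Npas4 (0.97) and Nr4a3 (0.97), and Dusp4 most like Egr4 (0.99), Nr4a3 (0.98) and Hdac9 (0.98). Npas4, Nr4a3 and Egr4 are immediate-early transcription factors. Nrn1 was most like C1ql3 (0.99), Nol4 (0.99) and Mark1 (0.98), and Nptx2 most like Diras2 (0.95), Kcnf1 (0.94) and Dlgap4 (0.94). Inhba had the lowest best match, with Dot1l (0.88), Sik1 (0.85) and Spns2 (0.83), where Sik1 is a salt-inducible kinase that activity also induces. Vgf was nearest to Rgs8 (0.95), Pnoc (0.93) and Ero1a (0.91), Scg2 to Pcp4 (0.94), Fbxl2 (0.93) and Fam171b (0.92), and Pcsk1 to Pim2 (0.93), Madd (0.92) and Pptc7 (0.92). Rgs4 was nearest to Ttbk1 (0.94), Arpp21 (0.93) and Zfp804a (0.93), and Homer1 to Klhl2 (0.94), Slc25a12 (0.94) and Atxn7l3 (0.93).

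Next, the effect of cocaine in the presence of Tat was examined over 5 backgrounds (no compound, 4OI, amlexanox, tazemetostat and senicapoc), with 15 libraries on each side, in a comparison chosen after the data were seen. With cocaine, 4 of the 10 genes, Dusp4, Bdnf, Nptx2 and Vgf, were called lower and none higher. As said above, cocaine and time since Tat cannot be told apart here. Over all genes tested, 2.91% fell and 4.55% were called in either direction. All 10 estimates over the 5 backgrounds were negative, with a median of −0.66 (log2) against 0.01 for all genes, and 8 of 10 had an unadjusted p under 0.05, as did 20.1% of all genes. Without a compound the median of the 10 genes was 0.10, although the estimates of the 4 called genes were negative there too. In the backgrounds with a compound the median was −0.96 with 4OI, −0.33 with amlexanox, −0.91 with tazemetostat and −1.25 with senicapoc. The tests of a different effect of cocaine with and without a compound called 0 of 10 for 4OI, amlexanox and tazemetostat (limma). These 3 tests also called 0 over all genes. For senicapoc the test called 1 of 10, Inhba. A difference between backgrounds was thus not shown for the other genes.

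Dusp4 ranged from 16.5 to 86.0 CPM (median 44.5) with Tat and from 6.27 to 38.4 CPM (median 21.2) with Tat and cocaine. It fell by 1.28 on the log2(CPM + 0.5) scale (SE 0.20, adjusted p = 0.000146, limma), to 0.413 of its level. Bdnf ranged from 8.61 to 83.8 CPM (median 33.7) with Tat and from 2.22 to 49.9 CPM (median 16.2) with Tat and cocaine, and its log2 fold change was −1.28 (SE 0.32, adjusted p = 0.0162, limma). The medians of both genes with cocaine were below those without, while the ranges overlapped.

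Vgf, whose granule protein is cut into secreted peptides, ranged from 183 to 579 CPM (median 342) with Tat and from 150 to 261 CPM (median 188) with Tat and cocaine. It fell by 0.84 (SE 0.18, adjusted p = 0.00518, limma). Nptx2 ranged from 18.8 to 191 CPM (median 64.4) and from 8.10 to 95.5 CPM (median 34.7), with a log2 fold change of −1.0 (SE 0.27, adjusted p = 0.0291, limma). Of the 4, only Nptx2 lost its call when single libraries were left out, in 8 of 30 cases (adjusted p = 0.0116 to 0.0669 over all 30, limma). Those 8 were the fits without Tat-Cocaine replicate 2, Tat-Amlexanox replicate 3, Tat-Tazemetostat replicate 3, Tat-4OI replicate 1, Tat-Cocaine-Amlexanox replicate 1, Tat-Cocaine-Tazemetostat replicate 2, Tat-Cocaine-4OI replicate 2 or Tat-Cocaine-Senicapoc replicate 2.

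The other 6 genes did not pass the test. Rgs4 had a log2 fold change of −0.69 (adjusted p = 0.0519), Pcsk1 of −0.63 (0.125), Nrn1 of −0.53 (0.122) and Inhba of −0.46 (0.131), all by limma. Scg2 had −0.24 (95% interval −0.57 to 0.09) and Homer1 −0.11 (95% interval −0.31 to 0.08).

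By background, the estimate for Dusp4 was −0.76 without a compound, −1.87 with 4OI, −0.56 with amlexanox, −1.48 with tazemetostat and −1.71 with senicapoc. That for Bdnf was −0.07 without a compound, −2.16 with 4OI, −0.58 with amlexanox, −1.54 with tazemetostat and −2.02 with senicapoc. Vgf was more even, at −0.72, −0.82, −0.54, −0.81 and −1.34 in the same order, and Nptx2 gave −0.14, −1.10, −0.55, −1.24 and −1.95. In the pair without a compound, Tat-Cocaine against Tat, 0 of the 10 genes passed (limma, 0.0189% of all genes), with 1 at an unadjusted p under 0.05 (Inhba, 0.87). With 4OI, amlexanox and tazemetostat, 0 of 10 passed in each pair (0% of all genes, limma), and the numbers at an unadjusted p under 0.05 were 5, 0 and 3. Numbered libraries deviated together in the 4OI, amlexanox and tazemetostat pairs. With the replicate number as a block, 1 of the 10 genes, Dusp4 (log2 fold change −1.87, adjusted p = 0.0363, limma), passed in the 4OI pair (0.0629% of all genes fell in that fit). In the amlexanox and tazemetostat pairs the block left the count of called genes among the 10 unchanged.

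Neuron markers moved in the same comparison: 5 of 16 fell and 0 rose (median −0.36): Gad2 (−0.79), Nefh (−0.67), Tubb3 (−0.65), Gad1 (−0.62) and Slc32a1 (−0.52), 3 of which (Gad1, Gad2 and Slc32a1) mark inhibitory neurons. Of 10 microglia, 9 astrocyte and 9 oligodendrocyte lineage markers tested, 0 passed in either direction (limma), and their numbers at an unadjusted p under 0.05 were 0, 2 and 0. After centring on neuron markers, which shifted the median of all genes by 0.37, 5 genes fell (0.736% of all genes): Dusp4 (−0.91), Bdnf (−0.91), Nptx2 (−0.63), Vgf (−0.48) and Rgs4 (−0.33), and Homer1 rose by 0.25 on that scale, as did 65.6% of all genes. The part of neuron number in these values was not tested further.

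**Figure D3:**
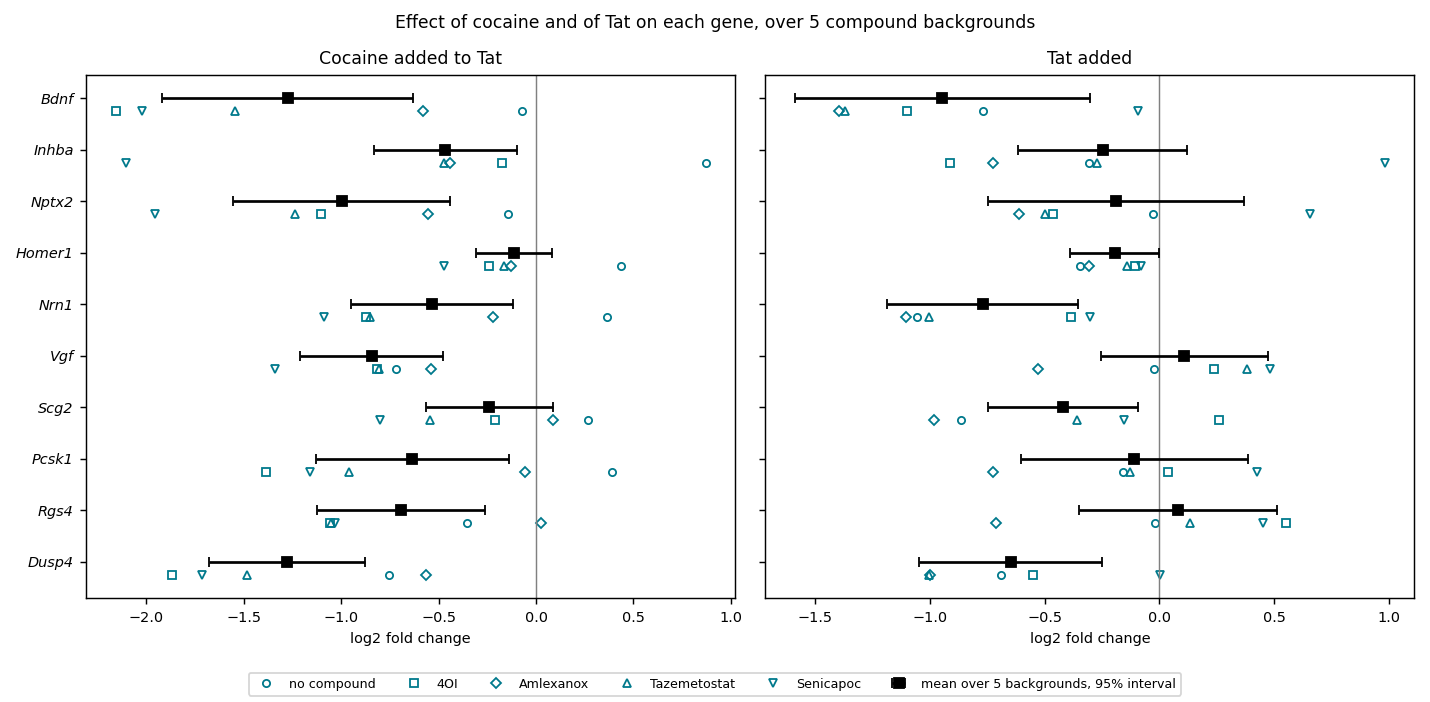
Log2 fold change of the 10 genes on adding cocaine to Tat and on adding Tat. Black squares are the estimates over 5 backgrounds with 95% intervals, and open symbols the 5 backgrounds; for cocaine all 10 squares lie below 0, from −1.28 for Dusp4 to −0.11 for Homer1.

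Other activity-regulated genes were counted in the same comparison. Of 17 immediate-early genes, 8 fell with cocaine, led by Npas4 (−1.73), Egr4 (−1.32) and Nr4a1 (−1.12), all 3 transcription factors, and 1 rose (Jun, 0.25). Of 17 other delayed activity-regulated genes, 8 fell and 0 rose, led by Acan (−1.53), a core protein of perineuronal nets, Gpr3 (−1.23), a constitutively active receptor, and Crh (−1.21), a releasing hormone. Among partners of the 10 proteins, the neurotrophin receptor Ngfr (−1.03), the granule enzyme Pam (−0.31) and the scaffold Homer2 (−0.28) fell, and Homer3 rose by 0.27. After centring on neuron markers, 6 of the 17 immediate-early genes were called lower and 3 higher (limma). Of the 17 other delayed genes, 5 were then called lower and 3 higher. Over all genes, 0.736% fell and 65.6% rose in that fit.

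Cocaine without Tat was compared with Control in 3 libraries each. Vgf was the 1 gene of 10 called, at 251, 47.8 and 36 CPM in Cocaine and 427, 341 and 144 CPM in Control. Replicates 2 and 3 of Cocaine were below all Control libraries, and replicate 1 was not. Its log2 fold change was −1.86 (SE 0.40, adjusted p = 0.0463, limma), where 0.164% of all genes fell. The call was lost without Cocaine replicate 2 or 3 or Control replicate 1 or 2. Over all 6 fits with a library left out, kept or lost, the adjusted p ran from 3.18e-06 to 0.712 (limma).

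The same split between libraries was seen in other genes. Dusp4 was at 53.7, 11.9 and 13.9 CPM in Cocaine and 96.0, 60.6 and 34.5 CPM in Control. Bdnf was at 112, 13.7 and 4.71 CPM against 110, 47 and 23.1 CPM. Without Cocaine replicate 1, 6 of the 10 genes were called lower (7.2% of all genes): Vgf (−2.72), Bdnf (−2.53), Dusp4 (−2.15), Nptx2 (−1.94), Scg2 (−1.84) and Pcsk1 (−1.73). Of the 16 neuron markers, 15 then fell too. Their mean log2 level was 7.21, 5.91 and 5.83 in Cocaine and 7.41, 7.05 and 6.88 in Control, and the oligodendrocyte marker Mbp reached 9293 CPM in Cocaine replicate 3. With all 3 libraries and centring on neuron markers, which shifted the median of all genes by 0.80, Vgf (−1.06) and Dusp4 (−0.68) were called lower and Homer1 (0.65) and Inhba (1.10) higher (0.176% of all genes fell and 61.5% rose).

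The effect of Tat was likewise taken over 5 backgrounds, with 15 libraries on each side, also after the data were seen. Tat lowered 4 of the 10 genes, Nrn1, Dusp4, Bdnf and Scg2, where 26.7% of all genes fell and 56.5% changed in either direction, against which the 4 of 10 are to be read. Nrn1 ranged from 15.2 to 32.8 CPM (median 26.4) without Tat and from 3.74 to 25.8 CPM (median 14) with it, and it fell by 0.77 (SE 0.20, adjusted p = 0.00186, limma). Bdnf fell by 0.95 (SE 0.32, adjusted p = 0.0116) and Dusp4 by 0.65 (SE 0.20, adjusted p = 0.00586), both by limma.

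Scg2 fell by 0.42 (SE 0.16, adjusted p = 0.0256, limma), a call that was lost without Control replicate 1, Amlexanox replicate 3 or Tazemetostat replicate 1 (adjusted p up to 0.0545) and after centring on neuron markers (−0.11, adjusted p = 0.411). Vgf (0.11, 95% interval −0.26 to 0.47) and Rgs4 (0.08, 95% interval −0.35 to 0.51) gave estimates near 0. After that centring, which shifted the median of all genes by 0.31, these 2 genes were called higher (Vgf 0.42, Rgs4 0.39; 46.4% of all genes rose), and Nrn1 (−0.46), Bdnf (−0.63) and Dusp4 (−0.34) lower (3.41% of all genes fell).

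In the single pair of Tat against Control, 0 of 10 passed (limma, 21.3% of all genes), with 2 at an unadjusted p under 0.05. Scg2 was at 190, 155 and 254 CPM in Tat and 474, 358 and 266 CPM in Control (log2 fold change −0.86, adjusted p = 0.0814), and Nrn1 at 10.3, 5.43 and 14 CPM and 30.5, 16.7 and 15.2 CPM (−1.06, adjusted p = 0.0943), both by limma. In both genes the groups did not overlap, as for 13.6% of all genes in that direction. With amlexanox present, Scg2 fell on adding Tat (−0.98, SE 0.36, adjusted p = 0.03, limma), with 17% of all genes called lower. It was then at 174, 223 and 315 CPM, against 295, 480 and 664 CPM. Numbered libraries deviated together in this pair, and with the replicate number as a block 3 of the 10 genes passed, Scg2, Nrn1 and Dusp4, all lower, where 19.9% of all genes fell in that fit. Neuron markers averaged 6.40 to 6.94 in Tat-Amlexanox and 7.15 to 7.46 in Amlexanox (log2), and after centring on them Scg2 had −0.36 (adjusted p = 0.216, limma). The call for Scg2 was lost without Amlexanox replicate 2 or 3 or Tat-Amlexanox replicate 1 or 2. Over all 6 fits with a library left out, kept or lost, its adjusted p ran from 0.00983 to 0.180 (limma).

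Over the 5 backgrounds, the partners of these proteins moved with Tat as follows. Ntrk2, the receptor for brain-derived neurotrophic factor, fell by 0.71 (adjusted p = 1.69e-09, limma), and of 12 activin and neurotrophin partners, 4 rose and 3 fell. Of 7 secretory granule partners 5 fell and 0 rose, led by Scg5 (−0.73), Scg3 (−0.65) and Pcsk2 (−0.56), and of 14 synaptic and G protein partners 10 fell and 1 rose. Of 17 immediate-early genes, 4 rose and 11 fell (Arc, −0.91; Npas4, −0.88; Btg2, 0.52), and of 17 other delayed genes 3 rose and 5 fell (Gadd45b, 1.56). In the same comparison 10 of 16 neuron markers fell and 0 rose, 5 of 10 microglia markers rose and 1 fell (Itgam, 1.52; Aif1, 1.51), and 2 of 9 astrocyte markers rose and 5 fell. After centring on neuron markers, 1 synaptic and G protein partner was called higher and 1 lower (limma). Immediate-early genes then had 5 higher and 5 lower, granule partners 0 and 4, and other delayed genes 4 and 0. Activin and neurotrophin partners had 8 higher and 1 lower. Over all genes, 46.4% rose and 3.41% fell in that fit.

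Tat and cocaine together were compared with Control. Dusp4 was the 1 gene of 10 called, at 21.7, 19 and 22.9 CPM in Tat-Cocaine and 96.0, 60.6 and 34.5 CPM in Control, with no overlap, as for 13.3% of all genes. It fell by 1.45 (SE 0.44, adjusted p = 0.0227, limma), where 6.3% of all genes fell. The call was lost without Control replicate 1 or 2 or Tat-Cocaine replicate 2. Over all 6 fits with a library left out, kept or lost, the adjusted p ran from 0.0107 to 0.147 (limma). Neuron markers averaged 6.58 to 6.98 in Tat-Cocaine and 6.88 to 7.41 in Control (log2). Fibroblast and vessel markers averaged 3.31 to 4.10 and 2.74 to 2.94, and the part of either in the Dusp4 value was not tested further. Numbered libraries deviated together in this pair, and the replicate block left the count of called genes among the 10 unchanged.

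Senicapoc added to Tat gave the highest group mean of Inhba in the series. Inhba, the activin subunit, was at 6.05, 19.4 and 9.91 CPM in Tat-Senicapoc and 2.84, 2.25 and 2.32 CPM in Tat, and all 3 libraries with senicapoc were above those without. It rose by 1.90 (SE 0.41, adjusted p = 0.0352, limma), 3.74-fold on the log2(CPM + 0.5) scale, and was the 1 gene of 10 called, where 0.0692% of all genes rose. In all 10 genes the Tat-Senicapoc libraries lay above the Tat libraries, as they did for 12.1% of all genes. Of the 10, 9 had an unadjusted p under 0.05, as did 18.3% of all genes.

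Nptx2, whose product clusters AMPA receptors, was at 122, 191 and 139 CPM in Tat-Senicapoc and 57.6, 30.5 and 46.7 CPM in Tat (1.75, adjusted p = 0.15, limma). Homer1 was at 33.9, 40.3 and 34.4 CPM against 24.8, 15.1 and 21.9 CPM (0.82, adjusted p = 0.0634, limma). The estimates of the other genes were 1.33 for Nrn1, 1.24 for Bdnf, 1.15 for Dusp4, 1.14 for Pcsk1, 1.10 for Rgs4, 0.89 for Scg2 and 0.84 for Vgf, with adjusted p of 0.147 to 0.343 by limma. Of 17 other delayed genes, 1 rose (Sik1, 0.74) and 0 fell. The mean log2 level of neuron markers was 7.19 to 7.44 in Tat-Senicapoc and 6.08 to 6.92 in Tat, and after centring on it Inhba had 1.26 (adjusted p = 0.0741, limma). The call for Inhba was kept only without Tat replicate 1 or Tat-Senicapoc replicate 1 (adjusted p = 0.0394 to 0.174 with a library left out).

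Without Tat, senicapoc called 0 of the 10 genes (0% of all genes, limma), with 1 at an unadjusted p under 0.05 (Homer1, 0.56). The Inhba libraries were at 5.42, 4.52 and 5.42 CPM, against 4.95, 2.45 and 2.54 CPM in Control. The test of a different effect of senicapoc with and without Tat called 0 of 10 (0% of all genes, limma), with 1 at an unadjusted p under 0.05 (Inhba, 1.29, adjusted p = 0.996).

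With Tat and cocaine, the estimate for senicapoc on Inhba had the other sign and did not pass the test. Inhba was at 2.12, 1.62 and 2.56 CPM in Tat-Cocaine-Senicapoc and 4.81, 3.27 and 7.41 CPM in Tat-Cocaine, with no overlap, as for 8.2% of all genes (−1.07, adjusted p = 0.216, limma). None of the 10 genes passed there (0 of 10, with 1 at an unadjusted p under 0.05, limma, 0.0441% of all genes). Fibroblast and vessel markers stood apart in the same libraries, with a mean log2 level over 5 genes of 2.71 to 3.05 with senicapoc and 3.31 to 4.10 without (summed 254 to 299 CPM and 222 to 331 CPM), and 0 of 5 were called (2 at an unadjusted p under 0.05, limma). Their part in the Inhba values was not tested. The test of a different effect of senicapoc with Tat and with Tat and cocaine, chosen after the data were seen, called Inhba among 5 genes in all (0.0315% of all genes), at −2.98 (SE 0.57, adjusted p = 0.0323, limma). That call held in 5 of 12 fits with a library left out (adjusted p = 0.0304 to 0.192 over all 12, limma). It was lost without Tat replicate 1 or 2, Tat-Cocaine replicate 1, Tat-Senicapoc replicate 2 or 3 or Tat-Cocaine-Senicapoc replicate 1 or 2. It was also lost after centring on neuron markers (−2.19, adjusted p = 0.138).

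**Figure D4:**
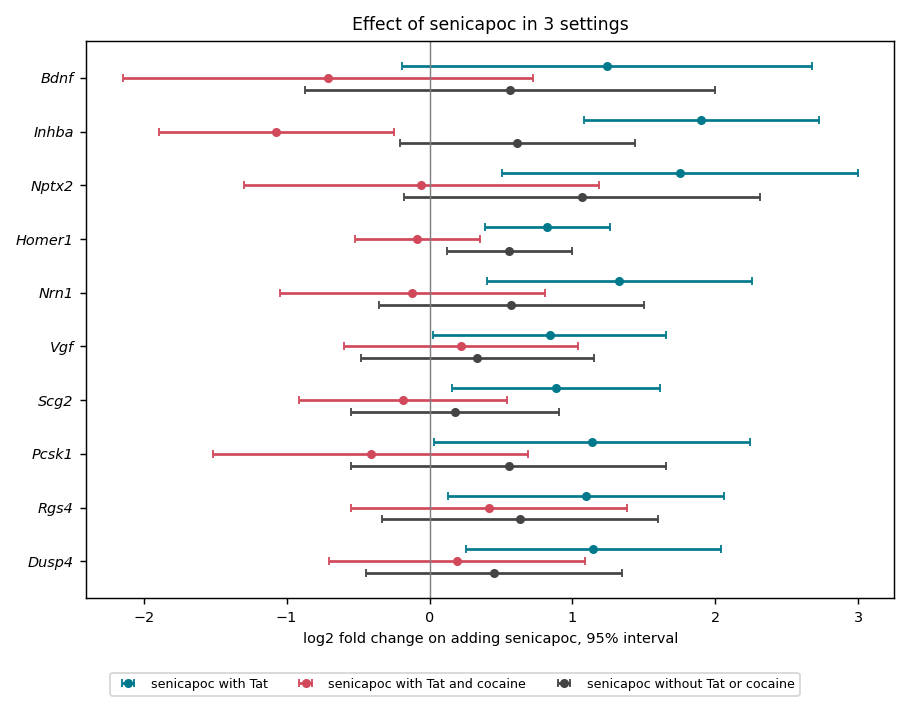
Log2 fold change of the 10 genes on adding senicapoc to Tat, to Tat and cocaine, and alone, with 95% intervals. Inhba lies at 1.90 with Tat and at −1.07 with Tat and cocaine.

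Seen from the other side, adding cocaine to Tat-Senicapoc cultures gave Inhba a log2 fold change of −2.11 (SE 0.41, adjusted p = 0.0128, limma), and Inhba was the 1 gene of 10 called (0.164% of all genes fell). In all 10 genes the libraries with cocaine were below those without, as for 13.3% of all genes, and all 10 had an unadjusted p under 0.05, as did 13.8% of all genes. Bdnf was at 23.6, 7.88 and 23.6 CPM with cocaine and 65.6, 83.8 and 58.2 CPM without (−2.02, adjusted p = 0.196, limma). Dusp4 was at 29.2, 13 and 37.2 CPM with cocaine and 83.1, 86.0 and 73.1 CPM without (−1.71, adjusted p = 0.0864, limma). Of 17 immediate-early genes 4 fell and 0 rose (Npas4, −2.99; Fosb, −2.75; Nr4a1, −1.83; Fos, −1.13), and of 17 other delayed genes 4 fell and 0 rose (Acan, −2.62; Gpr3, −2.0; Dusp5, −1.23; Sik1, −1.05). The Inhba call was lost without Tat-Senicapoc replicate 2 or 3 or Tat-Cocaine-Senicapoc replicate 1 or 2. Over all 6 fits with a library left out, kept or lost, its adjusted p ran from 0.00683 to 0.152 (limma). The mean log2 level of neuron markers was 6.45 to 6.87 with cocaine and 7.19 to 7.44 without, and after centring on it Inhba was no longer called (−1.48, adjusted p = 0.0967), nor was it in a fit to these 2 groups alone (adjusted p = 0.1, limma). This comparison shares its Tat-Senicapoc libraries with that against Tat.

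Tazemetostat added to Tat and cocaine lowered 4 of the 10 genes, Bdnf, Inhba, Pcsk1 and Nrn1, where 13.4% of all genes fell and 28.7% were called in either direction. Inhba was at 1.35, 1.17 and 2.30 CPM in Tat-Cocaine-Tazemetostat and 4.81, 3.27 and 7.41 CPM in Tat-Cocaine, without overlap, and fell by 1.40 (SE 0.41, adjusted p = 0.0148, limma). Bdnf was at 10.2, 3.31 and 8.79 CPM against 24.7, 16.2 and 49.9 CPM, also without overlap, and fell by 1.94 (SE 0.71, adjusted p = 0.0389, limma).

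Pcsk1, the prohormone convertase, was at 12.9, 5.66 and 13.6 CPM against 29.5, 28.7 and 29.6 CPM (−1.50, SE 0.54, adjusted p = 0.0382, limma). Nrn1 was at 6.19, 2.40 and 6.76 CPM against 13.2, 11.1 and 11.9 CPM (−1.27, SE 0.46, adjusted p = 0.0366, limma). In both genes all libraries with tazemetostat were below those without, and over the 10 genes this was so for 8, as for 23% of all genes. Vgf was at 209, 230 and 180 CPM against 150, 188 and 157 CPM (0.32, adjusted p = 0.569, limma).

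Neuron markers were lower in the same cultures: 12 of 16 fell and 0 rose (Snap25, −1.58), with a mean log2 level of 5.59 to 6.05 against 6.58 to 6.98, and 5 of 10 microglia markers rose and 0 fell (P2ry12, 1.66). Secretory granule partners (4 of 7 fell; Chgb, −1.36), synaptic and G protein partners (6 of 14; Nptx1, −1.82) and oligodendrocyte lineage markers (4 of 9; Mag, −3.94) had 0 that rose. Of 17 immediate-early genes 2 fell and 1 rose (Npas4, −2.11), and of 17 other delayed genes 3 fell and 0 rose (Acan, −1.42). After centring on neuron markers, which shifted the median of all genes by 0.95, none of the 4 genes was called lower (0.598% of all genes were), and Vgf (1.25), Homer1 (0.46) and Scg2 (0.54) were called higher, where 77.9% of all genes rose. Without Tat-Cocaine replicate 1 or Tat-Cocaine-Tazemetostat replicate 2, 0 of the 10 genes passed, without Tat-Cocaine replicate 2 or 3 the calls of Bdnf, Pcsk1 and Nrn1 were lost, and without Tat-Cocaine-Tazemetostat replicate 1 that of Pcsk1. The adjusted p with a library left out ran from 0.0483 to 0.195 for Bdnf, 0.0149 to 0.0864 for Inhba, 0.0393 to 0.203 for Pcsk1 and 0.0309 to 0.235 for Nrn1. Tazemetostat alone and added to Tat called 0 of 10 in each case (0% of all genes, limma), with 0 at an unadjusted p under 0.05.

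With 4OI, calls were limited to Scg2 and Inhba. Scg2 was at 400, 443 and 411 CPM in Tat-4OI and 190, 155 and 254 CPM in Tat, without overlap, as for 17.7% of all genes. It rose by 1.09 (SE 0.36, adjusted p = 0.0338, limma) and was the 1 gene of 10 called, where 6.1% of all genes rose. Neuron markers averaged 6.93 to 7.31 in Tat-4OI and 6.08 to 6.92 in Tat (log2), and after centring on them Scg2 had 0.57 (adjusted p = 0.132, limma). In the same comparison 2 of 10 microglia markers fell (Itgam, −1.20; Csf1r, −1.19), 1 of 5 fibroblast and vessel markers fell (Pdgfrb, −1.20) and 1 of 9 astrocyte markers rose (Slc1a2, 0.79), and their part in the Scg2 value was not tested. The call was kept only without Tat replicate 3 (adjusted p = 0.0240 to 0.179 with a library left out).

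In Tat-Cocaine-4OI against Tat-Cocaine, Inhba fell by 1.32 (SE 0.41, adjusted p = 0.0401, limma), from 4.81, 3.27 and 7.41 CPM to 1.87, 1.34 and 1.83 CPM, where 3.29% of all genes fell. Bdnf (−1.89, adjusted p = 0.0995) and Pcsk1 (−1.43, adjusted p = 0.107, limma) did not pass, although their libraries did not overlap (8.8% of all genes in that direction). The Inhba call was kept only without Tat-Cocaine replicate 2 (adjusted p = 0.0366 to 0.149 with a library left out). Neuron markers averaged 6.02 to 7.0 in Tat-Cocaine-4OI and 6.58 to 6.98 in Tat-Cocaine (log2). Other markers moved in the same comparison: 3 of 10 microglia markers fell (C1qa, −1.53; Cd68, −1.36; Csf1r, −1.29), 4 of 9 astrocyte markers rose (S100b, 1.36; Gfap, 0.89; Slc1a2, 0.73; Sox9, 0.49) and 2 of 5 fibroblast and vessel markers fell (Lum, −1.81; Dcn, −1.66). The mean log2 level of these fibroblast and vessel markers was 3.31 to 4.10 in Tat-Cocaine, above the 2.35 to 2.78 in Tat-Cocaine-4OI and the 2.39 to 2.82 in Tat-Cocaine-Tazemetostat (where Dcn, Lum and Kdr fell), and their part in the Inhba values was not tested. The Inhba comparisons of 4OI, tazemetostat and senicapoc with Tat-Cocaine share the same 3 Tat-Cocaine libraries. 4OI alone called 0 of 10 (3.15% of all genes, limma), with 0 at an unadjusted p under 0.05.

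Amlexanox called none of the 10 genes in any of its 3 settings. Alone, it gave 0 of 10 (11.4% of all genes, limma), with 2 at an unadjusted p under 0.05 (Homer1 and Inhba), and all 10 estimates were positive (median 0.67), as were 8108 of 15890 over all genes (median 0.01). Of 9 astrocyte markers, 6 fell and 0 rose in the same comparison, led by S100b (−1.33), Gja1 (−1.01) and Aldh1l1 (−0.96), with a summed level of 5822 to 13664 CPM in Amlexanox and 10525 to 12542 CPM in Control, and their part in these estimates was not tested. Neuron markers averaged 7.15 to 7.46 in Amlexanox and 6.88 to 7.41 in Control (log2). Bdnf was at 129, 65.2 and 126 CPM in Amlexanox and 110, 47 and 23.1 CPM in Control. Of 17 immediate-early genes 6 rose and 0 fell, and of 17 other delayed genes 3 rose and 0 fell. With Tat it gave 0 of 10 (0.837% of all genes), and with Tat and cocaine 0 of 10 (0.925%), each with 1 at an unadjusted p under 0.05 (limma). The tests of a different effect with and without Tat called 0 of 10 for 4OI (0.497% of all genes), amlexanox (1.84%) and tazemetostat (0%), by limma, with 1, 0 and 0 at an unadjusted p under 0.05.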

How the data were processed

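Total RNA from the 48 cultures was made into stranded libraries and read paired-end. According to the submitters' processing notes, the authors trimmed reads with Trim Galore 0.4.5, aligned them with STAR 2.7.2 and assigned reads that mapped to a unique place to genes by featureCounts (Subread 1.5.3). The study's methods and those notes name different rat genome builds, so no coordinate was taken from the deposited table. The deposited values are a signal per gene, CPM after TMM scaling by the authors with edgeR (column sums 930399 to 1046890). Only 67.8% to 87.3% of values were whole reads (tolerance 0.02 reads), so no count test was run. The deposited columns of group means, and of the authors' own comparisons (log2 fold change, mean log2 CPM, likelihood ratio, p-value and false discovery rate), were not used.

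Genes that reached 0.5 CPM in 3 or more of the 48 libraries (15890) were tested on log2(CPM + 0.5) with limma 3.58.1 (trend, R 4.3.3) in 1 fit of all 16 groups without covariates, with Benjamini-Hochberg adjustment over all genes tested and a threshold of 0.05. A log2 fold change on this scale understates the change of low genes such as Inhba. Exact permutation of 3 against 3 libraries cannot go below a p of 0.1. "Called" means past that threshold. Interactions were contrasts of the same fit. Named genes were the 10, up to 3 called genes of each list by size of change (single genes where 5 or fewer passed), and the 3 most alike genes. Genes and lists were chosen with earlier results of these data known, and the comparisons over 5 backgrounds, of cocaine within a compound, of Tat within a compound and of compound by cocaine were added after the data were seen. Promoters were read from RefSeq (GRCr8). Replicate numbers are shared by the labels, and same-numbered libraries were taken as paired where each of the 3 correlations of their deviations from the group means exceeded 0.1, which held for 9 of 24 comparisons of 2 groups. Alternatives were other pseudocounts (0.1 and 1), filters, scalings, centring on neuron markers, limma without trend or with array weights, the replicate block, fits to fewer groups and leaving out each library.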

Additional observations from a re-analysis of the deposited data

Results flagged for a closer look

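The estimates of senicapoc on Inhba had opposite signs with Tat and with Tat and cocaine. Its 3 libraries with senicapoc were all above those without when Tat was present (log2 fold change 1.90) and all below when Tat and cocaine were present (−1.07), where the change did not pass the test (adjusted p = 0.216, limma). The test of the difference between these effects gave −2.98 with an adjusted p of 0.0323 (limma), a call that held in 5 of 12 fits with a library left out and was lost after centring on neuron markers (adjusted p = 0.138). The Tat-Senicapoc libraries were at 6.05, 19.4 and 9.91 CPM, and the highest of them, replicate 2, was 1 of the libraries whose removal ended the call in the test against Tat. The part of the neuron marker level, which was also higher in Tat-Senicapoc than in Tat, was not tested beyond the centred fit. Mean Inhba was 5.16 CPM in Tat-Cocaine and 2.47 CPM in Tat. With Tat and cocaine it was 2.10 CPM with senicapoc, 2.51 with amlexanox, 1.68 with 4OI and 1.61 with tazemetostat, so the lower level was not particular to senicapoc. Fibroblast and vessel markers were also higher in Tat-Cocaine (mean log2 3.31 to 4.10) than in Tat-Cocaine-Senicapoc (2.71 to 3.05), and their part was not tested.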

How the results depend on the processing

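Depth limits Inhba most, at 1.17 to 19.4 CPM, and 3 libraries a group limit every pairwise comparison. The 4 genes that fell with cocaine over 5 Tat backgrounds kept their calls under each of 11 alternatives, and 3 of them with each library left out, Nptx2 being the exception. No direction of a call reversed. Pseudocount 0.1 and limma without trend moved no count of called genes.

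Counts of called genes, of 10, moved as follows (main value, then the alternative). With array weights they went from 0 to 1 for Tat against Control, Tat-Cocaine-Senicapoc against Tat-Cocaine, the 4OI by Tat interaction and Tat-Senicapoc against Senicapoc, from 0 to 2 for Senicapoc against Control, from 0 to 3 for Tat-4OI against 4OI, from 0 to 4 for Tat-Tazemetostat against Tazemetostat and the tazemetostat by cocaine interaction, from 0 to 9 for Tat-Cocaine-Tazemetostat against Tat-Tazemetostat, from 1 to 2 for Tat-Cocaine against Control and the senicapoc by cocaine interaction, from 1 to 3 for Tat-4OI against Tat and Tat-Amlexanox against Amlexanox, from 1 to 4 for Tat-Senicapoc against Tat, from 1 to 9 for Tat-Cocaine-Senicapoc against Tat-Senicapoc, from 1 to 0 for Tat-Cocaine-4OI against Tat-Cocaine, and from 4 to 8 for cocaine over 5 Tat backgrounds. Centred on neuron markers, they went from 1 to 4 for Cocaine against Control, from 0 to 1 for Tat-Cocaine-4OI against Tat-4OI, and from 1 to 0 for Tat-4OI against Tat, Tat-Senicapoc against Tat, Tat-Cocaine-4OI against Tat-Cocaine, Tat-Amlexanox against Amlexanox, Tat-Cocaine-Senicapoc against Tat-Senicapoc and the senicapoc by cocaine interaction. In a fit to the 21 libraries of the paper's groups, they went from 1 to 0 for Cocaine against Control, Tat-Cocaine against Control, Tat-4OI against Tat and Tat-Cocaine-4OI against Tat-Cocaine. In fits to the compared groups alone, they went from 1 to 0 for Cocaine against Control, Tat-Cocaine against Control, Tat-Senicapoc against Tat, Tat-Cocaine-4OI against Tat-Cocaine, Tat-Cocaine-Senicapoc against Tat-Senicapoc and the senicapoc by cocaine interaction, from 1 to 4 for Tat-Amlexanox against Amlexanox and from 4 to 7 for Tat-Cocaine-Tazemetostat against Tat-Cocaine. Without a filter, they went from 1 to 0 for Tat-4OI against Tat and Tat-Cocaine-4OI against Tat-Cocaine and from 4 to 1 for Tat-Cocaine-Tazemetostat against Tat-Cocaine. Tat-Amlexanox against Amlexanox went from 1 to 2 with a filter of 2 CPM, median-of-ratios scaling, quantile scaling and pseudocount 1, and quantile scaling took Tat-Cocaine-4OI against Tat-Cocaine from 1 to 0. The cause of these moves was not tested.

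With the replicate number as a block, counts went from 0 to 1 for Tat against Control, Tat-Tazemetostat against Tazemetostat and Tat-Cocaine-4OI against Tat-4OI, from 1 to 2 for Tat-Cocaine-4OI against Tat-Cocaine and Tat-Cocaine-Senicapoc against Tat-Senicapoc, from 1 to 3 for Tat-Amlexanox against Amlexanox, from 1 to 4 for Tat-Senicapoc against Tat and from 4 to 7 for Tat-Cocaine-Tazemetostat against Tat-Cocaine, and no other count moved by over 1.5 times.

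With single libraries left out, the counts ran from 0 to 1 for Tat against Control, Tat-Cocaine against Control, Amlexanox against Control, Tat-4OI against Tat, Tat-Senicapoc against Tat, Tat-Cocaine-4OI against Tat-Cocaine, Tat-4OI against 4OI, Tat-Senicapoc against Senicapoc, Tat-Cocaine-Tazemetostat against Tat-Tazemetostat, Tat-Cocaine-Senicapoc against Tat-Senicapoc and the senicapoc by cocaine interaction, from 0 to 2 for Tat-Tazemetostat against Tazemetostat, from 0 to 3 for Tat-Amlexanox against Amlexanox, from 0 to 4 for Tat-Cocaine-Tazemetostat against Tat-Cocaine, from 0 to 6 for Cocaine against Control, from 3 to 5 for Tat over 5 backgrounds and from 3 to 7 for cocaine over 5 Tat backgrounds. Counts over all genes ranged under the alternatives from 1070 to 4340 for Tat against Control (3382 in the main fit), 0 to 9799 for Cocaine against Control (32), 494 to 3510 for Tat-Cocaine against Control (2372), 596 to 10534 for cocaine over 5 Tat backgrounds (723), 0 to 646 for Tat-Senicapoc against Tat (65) and 3781 to 12470 for Tat-Cocaine-Tazemetostat against Tat-Cocaine (4554), where the highest values for cocaine and tazemetostat were those centred on neuron markers.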
